A study of Canis lupus familiaris with 33 samples.

Results

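Very short annotated genes were followed through RNA sequencing of canine oligodendroglioma and control brain. The rule took every entry of the count table outside the mitochondrial genome that had 1 merged exon and an exonic length of at most 95 bp, which gave 676 of the 30951 entries (2.18%). The rule itself uses no measured value, though it was set with earlier results of these data known. These entries are called short features here. The table names them by Ensembl identifier only, so which of them are microRNA hairpins, C/D box snoRNAs, other RNAs or unexpressed copies was not checked, and the label rests on length alone. Positions are given on CanFam3.1, the assembly of the count table, and sequences were not used here.

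MicroRNA hairpins are folded precursors that are cut in the nucleus and again in the cytoplasm to a mature strand, which guides Argonaute proteins to messenger RNAs. C/D box snoRNAs guide the methylation of ribosomal RNA in the nucleolus. Both kinds often lie inside introns of longer host genes, from whose transcripts they are released, and both can lie in tandem arrays. Total RNA libraries are not designed to capture mature microRNAs, which are shorter than the fragments usually sequenced.

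The study compared oligodendroglioma, a tumour of the glial lineage, with brain described as healthy, and formalin-fixed paraffin-embedded (FFPE) tissue with fresh-frozen tissue. Its 33 libraries came from 25 dogs, each library from 1 animal, with tissue collected within 1 to 18 hours of death. The groups were FFPE tumour (11 dogs, 9 of grade III and 2 of grade II, with 6 French Bulldogs, 4 Boxers and 1 Pomerian), FFPE control (10 dogs, with 5 French Bulldogs, 4 Boxers and 1 Bolonka Swetna), fresh-frozen tumour (6 dogs, 5 of grade III and 1 of grade II, with 3 French Bulldogs, 1 Boxer, 1 Pomerian and 1 Border Terrier) and fresh-frozen control (6 dogs, with 2 French Bulldogs, 1 Hovawart, 1 Mongrel, 1 Berner sennenhund and 1 Bolonka Swetna). No treatment or genotype is given. Stated ages were 4.7 to 12 years in 9 FFPE tumours, 2 to 8 years in 5 FFPE controls, 4.7 to 10 years in 5 fresh-frozen tumours and 2.8 to 10.2 years in 5 fresh-frozen controls. Of these dogs, 5 with tumour and 3 controls gave a library of each preservation. Brain region, tumour cell content and block age are not given in the labels. All libraries are bulk tissue, so fewer cells of a type and less RNA per cell cannot be told apart.

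Totals, in units of 1e6 counts per library, ran from 0.406 to 32.6, with medians of 4.86 in FFPE tumour, 3.38 in FFPE control, 19.3 in fresh-frozen tumour and 18.95 in fresh-frozen control. The shallowest was FFPE control dog 50315. Among fresh-frozen libraries those of dogs 60126, 60127, 60461 and 60462, from 2 tumours and 2 controls, stood apart from the other 8. They lay at 46.3 to 70.5 on a principal component of the within-group variation that held 23.3% of it, with the others at -50.0 to -9.01. Mitochondrial counts made up a mean of 23.02% ± 8.36 of FFPE tumour libraries, 21.3% ± 8.12 of FFPE control, 9.37% ± 7.06 of fresh-frozen tumour and 14.1% ± 3.53 of fresh-frozen control (SD).

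The short features were 37 to 95 bp long with a median of 78 bp. In bins, 37 had 37 to 59 bp, 124 had 60 to 69 bp, 203 had 70 to 79 bp, 190 had 80 to 89 bp and 122 had 90 to 95 bp, of which 42 had exactly 95 bp. Chromosomes 1 to 38 and X held 661 and unplaced scaffolds 15. Chromosome 8 held 90, chromosome X 57 and chromosomes 3 and 9 held 42 each. The strands were nearly balanced, with 349 on plus and 327 on minus.

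By position, 307 short features (45.4%) lay outside other genes, 261 (38.6%) in an intron of a gene on the same strand, 77 (11.4%) within a gene on the opposite strand and 31 (4.59%) overlapped an exon of another gene on the same strand. The intron group sat in 183 host genes. Fragments that touched exons of more than 1 gene were not counted, and 26 of the 31 overlapping features had 0 counts in all libraries. Over all positions 127 short features had no count in any library and 549 had at least 1. Any fragment that touched a feature by 1 base was counted, so RNA of a host intron can add to the count of the feature in it.

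Where an intron feature lay in its host went with how often it was counted. The 40 features whose 3′ end lay 40 to 100 bp before the next host exon all had counts, with a median total of 419 over the 33 libraries, and 30 of the 40 had at least 100. Of the 74 features further away but within 1000 bp, 25 (33.8%) had at least 100 counts and the median was 61.5. Of the 143 features more than 1000 bp away, 13 (9.09%) did, with a median of 12. The 4 features less than 40 bp away had a median of 61.5, and 1 of them had at least 100 counts. These shares describe the annotation and the pooled counts, with no test, since features of 1 host share its transcript. By length, at least 100 counts were reached by 2 of 37 features of 37 to 59 bp (5.41%), 25 of 124 of 60 to 69 bp (20.2%), 87 of 203 of 70 to 79 bp (42.9%), 29 of 190 of 80 to 89 bp (15.3%) and 21 of 122 of 90 to 95 bp (17.2%). The share was thus highest in the middle of the length range.

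Short features took a larger share of the counts in FFPE than in fresh-frozen tissue. The share was 0.135% ± 0.0634 in FFPE tumour (SD, n = 11) and 0.146% ± 0.118 in FFPE control (n = 10), and 0.0276% ± 0.0129 in fresh-frozen tumour and 0.0124% ± 0.00554 in fresh-frozen control (SD, n = 6 each). Ranges were 0.0600% to 0.253% in FFPE tumour, 0.0195% to 0.432% in FFPE control, 0.0112% to 0.0475% in fresh-frozen tumour and 0.00673% to 0.0194% in fresh-frozen control. The FFPE and fresh-frozen tumour ranges did not overlap, while 2 FFPE controls (dogs 60126 and 60460) lay within the fresh-frozen tumour range.

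Within each of the 8 dogs with both preservations the share was higher in the FFPE library. The ratio of FFPE to fresh-frozen share was 1.52 in control dog 60126, 2.31 in tumour dog 60461, 3.05 in control dog 60460, 3.41 in tumour dog 60749, 3.99 in tumour dog 60127, 5.50 in tumour dog 60636, 8.06 in tumour dog 60679 and 22.3 in control dog 60462. Control dog 60462 was thus far above the other dogs. No p is given for a share summed over the features. With mitochondrial genes left out of the totals the mean shares were 0.173% in FFPE tumour, 0.198% in FFPE control, 0.0304% in fresh-frozen tumour and 0.0144% in fresh-frozen control. The part of mitochondrial counts in the other results was not tested.

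At equal depth more short features were seen in FFPE tissue. At the total of the shallowest library, 406406 counts, the expected number of short features with a count was 117 ± 18.2 in FFPE tumour, 109 ± 41.3 in FFPE control, 44.6 ± 16.96 in fresh-frozen tumour and 28.3 ± 10.1 in fresh-frozen control (SD). Without thinning the means were 280, 239, 263 and 239 features in the same order of groups. The fresh-frozen libraries were the deeper ones.

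**Figure D1:**
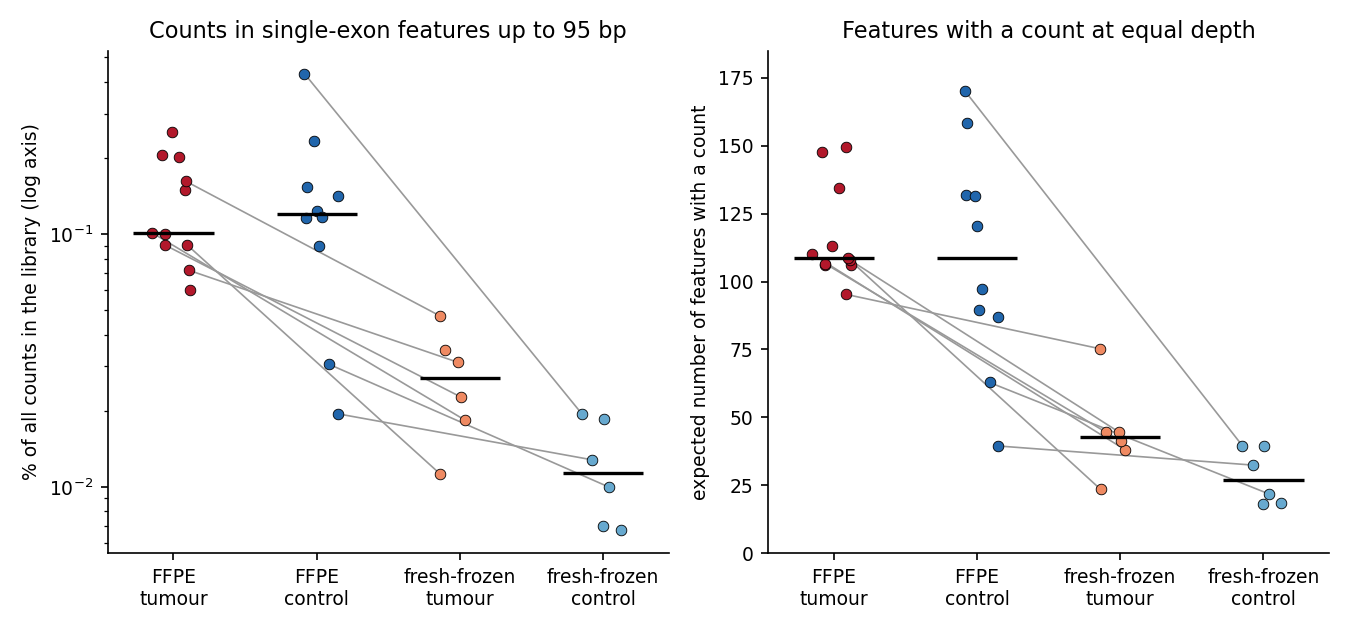
Left, the share of all counts in a library that fell in the 676 short features (percent, log axis), and right, the expected number of short features with a count at 406406 counts. Points are libraries, bars are group medians and grey lines join libraries of the same dog, and all 8 lines run lower on the fresh-frozen side.

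Few short features held a large part of these counts. Per library the 10 most counted features held 49.6% ± 10.4 of the short-feature counts in FFPE tumour, 54.5% ± 9.62 in FFPE control, 59.2% ± 6.87 in fresh-frozen tumour and 54.3% ± 4.42 in fresh-frozen control (SD). The lists of the 10 features with the highest mean CPM (counts of a feature per 1e6 counts of its library) in FFPE and in fresh-frozen tissue shared 4 features.

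The feature with the most CPM over FFPE libraries was chr16:1872563-1872640, 78 bp on the minus strand outside other genes. Its lowest, median and highest values were 32.02, 126 and 1042 CPM in FFPE tumour and 6.45, 339 and 648 CPM in FFPE control, against 0.414, 7.84 and 14.8 CPM in fresh-frozen tumour and 0.595, 2.37 and 4.27 CPM in fresh-frozen control. It held 14.4% ± 10.3 of short-feature counts in FFPE tumour and 23.5% ± 12.8 in FFPE control, against 2.62% ± 2.04 in fresh-frozen tumour and 1.66% ± 0.766 in fresh-frozen control (SD). Per length its mean level was 3640 CPM per kb in FFPE and 63.7 CPM per kb in fresh-frozen libraries.

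The feature with the most CPM over fresh-frozen libraries was chr18:53842200-53842275, 76 bp on the plus strand in a run of 6 short features. It had 30.3, 75.6 and 181 CPM in FFPE tumour and 19.4, 48.5 and 642 CPM in FFPE control (lowest, median, highest), against 12.8, 41.6 and 75.1 CPM in fresh-frozen tumour and 9.04, 16.4 and 48.2 CPM in fresh-frozen control. All 4 ranges overlapped. Its mean level per length was 1325 CPM per kb in FFPE and 405 CPM per kb in fresh-frozen libraries.

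Several other features near the top in fresh-frozen tissue were not called between preservations. The feature chr3:35833927-35833998 averaged 8.82 CPM over FFPE and 8.29 CPM over fresh-frozen libraries, and chr9:23342096-23342173 averaged 3.83 CPM over FFPE and 4.83 CPM over fresh-frozen libraries. In the paired dogs their log2 fold changes, FFPE over fresh-frozen, were 0.55 ± 0.51 (SE; edgeR adjusted p = 0.607) and -0.08 ± 0.38 (SE; edgeR adjusted p = 0.935). A p above the threshold does not show equal levels, and the first feature ranged up to 77.0 CPM in FFPE control. Most other uncalled features of the 10 highest in fresh-frozen tissue had larger estimates. These were 2.29 for the chromosome 18 feature (edgeR adjusted p = 0.0717), 2.48 for chr24:35958821-35958911 (0.149), 2.19 for chr24:35957018-35957108 (0.0776) and 2.28 for chrX:107180885-107180956 (0.126). The remaining uncalled ones were chr36:16631309-16631391 at 1.03 (0.225) and chr21:7030276-7030355 at -0.12 (0.902).

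The paired comparison asked which genes differ between FFPE and fresh-frozen tissue of the same animals. It used the 16 libraries of the 8 dogs, with tissue as a covariate, in edgeR's quasi-likelihood test. All p-values of fits across genes were adjusted by Benjamini-Hochberg over all genes tested, with a threshold of 0.05, and replicates within a group are separate dogs. The fit has no term for the dog, so it treats the FFPE and the fresh-frozen library of a dog as independent. With the dog as a block 68 short features were higher and 0 lower, against the 62 and 0 given next. That block fit called 3.34% of all 17097 genes higher and 0.491% lower. Of the 676 short features 168 passed the filter on low counts. Among them 62 were higher in FFPE tissue (36.9%), where 2.81% of all 17097 genes tested were higher, and 0 were lower, where 0.135% of all genes were. At an unadjusted p under 0.05, 129 were higher and 0 lower, where 2963 of all 17097 genes passed in either direction. DESeq2 called 109 of 238 higher and 0 lower, where it called 5.14% of all genes higher and 0.551% lower. The median log2 fold change of the 168 was 2.46, against -0.05 over all genes tested, and 161 were above 0.

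The filter bears on these counts, since a feature could pass through its FFPE libraries alone. Of the 168, 52 also reached the needed 0.631 CPM in 3 fresh-frozen libraries, and of these 20 were higher in FFPE, with a median of 2.36. Another 108 reached it in FFPE but not in fresh-frozen libraries, which includes 42 called features, and 8 only over both kinds together. A count with no filter is free of this. Of the 520 short features with a count in these 16 libraries, 67 (12.9%) had higher CPM in FFPE in all 8 dogs and 0 had lower CPM in all 8, while of all 29847 genes with a count 525 (1.76%) were higher in all 8 and 854 were lower. More dogs were higher than lower for 388 short features (74.6%), fewer for 81 and as many for 51. Over all genes with a count these numbers were 13523 (45.3%), 11247 and 5077. Per dog, 58.9% to 87.6% of the short features with a count were higher in the FFPE library, against 38.4% to 59.8% of all genes.

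The calls depended on the dogs included. Without the 4 dogs whose fresh-frozen libraries stood apart edgeR called 0 short features and 0 genes of any kind, with 93 short features at an unadjusted p under 0.05 and a median of 2.49. Leaving out 1 dog left 21 calls without dog 60679, 24 without 60636, 28 without 60127, 32 without 60461 and 36 without 60460. It left 42 without 60462, 64 without 60126 and 83 without 60749. Calls over all genes moved too, from 481 higher to 165 without 60679, 213 without 60636 and 278 without 60127. They were 268 without 60461, 311 without 60460, 277 without 60462, 600 without 60126 and 729 without 60749. The median of the short features was 2.07 to 2.79 in these fits. The tumour dogs alone gave 15 short features, with 74 of all genes higher. The control dogs alone gave 0, with 0 of all genes (short-feature median 2.75, 38 at an unadjusted p under 0.05).

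**Figure D2:**
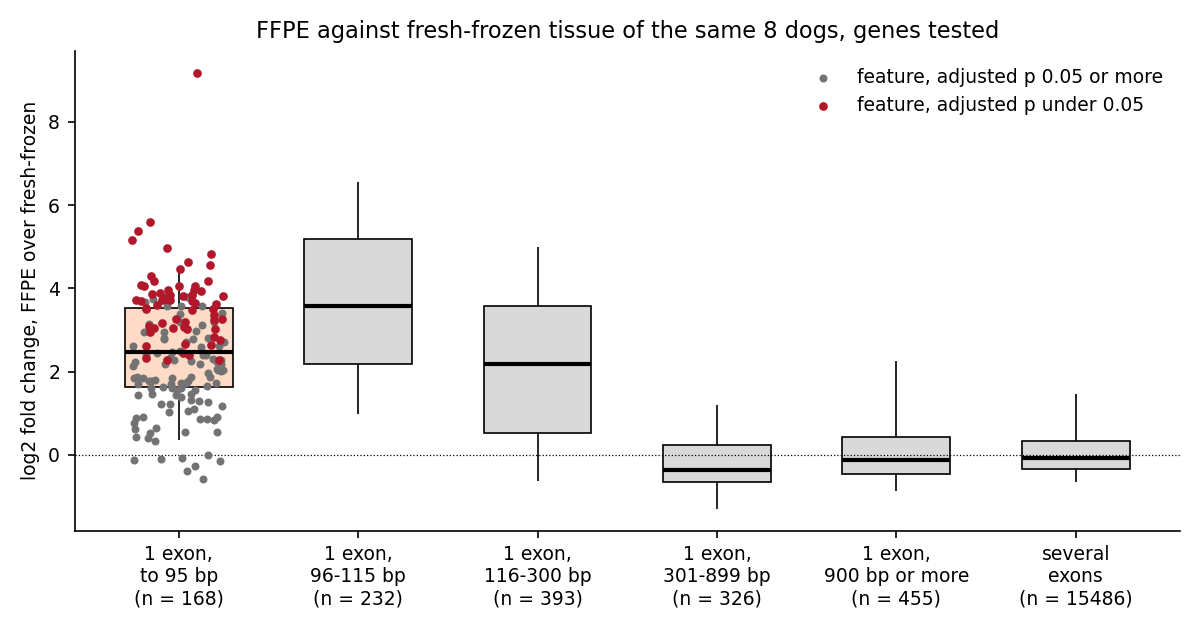
Log2 fold change of FFPE over fresh-frozen tissue in the 8 paired dogs for genes that passed the filter on low counts, by number of exons and exonic length. Boxes show the middle 50% with the median, whiskers the 5th and 95th percentiles, and points the 168 short features, of which 161 lie above 0.

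Longer single-exon entries gave a comparison for length. Of the 232 tested entries next in length, 130 were higher in FFPE tissue (56.0%) with a median of 3.58, and of the 393 longer ones up to 300 bp, 151 were higher (38.4%) with a median of 2.18. The 326 tested entries next in length had a median of -0.35. Genes of several exons had a median of -0.07, and 0.794% of them were higher. At the edge of the rule, 9 features of 94 and 95 bp were tested with 1 higher and a median of 2.19, and 7 of 96 and 97 bp with 4 higher and a median of 3.18. Higher values were thus not particular to entries up to 95 bp.

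By position among genes, of tested intron features 30 of 73 were higher in FFPE (median 2.81), of those outside genes 29 of 83 (2.32), of those opposite a gene 3 of 10 (2.96), and of those overlapping an exon 0 of 2. Among intron features 40 to 100 bp before the next host exon 18 of 29 were higher with a median of 3.52, and among those more than 1000 bp away 4 of 18 were, with a median of 1.95. Of the 97 tested features at least 300 bp from any exon on the same strand, 33% were higher, with a median of 2.28. By count level the medians were 2.41 for features averaging 2 to 10 counts, 2.60 for 10 to 50 and 2.57 for 50 or more.

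Intron features and their host genes had unlike fold changes. In the paired dogs the 73 tested intron features had a median log2 fold change of 2.81, against -0.30 for their 48 hosts. Of the hosts 0 were called, where 2.81% of all genes tested were higher and 0.135% lower. The feature had the larger fold change in 72 of 73 cases, but most tested features did not pass the filter in fresh-frozen libraries alone, which favours high values. Of the 22 intron features that also passed in fresh-frozen libraries alone, a limit added after seeing the data, 9 were higher in FFPE and 21 lay above their host, with medians of 2.44 for the features and -0.25 for their hosts. Features of 1 host are counted separately here and share its transcript.

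The named features are those called in a comparison with an average of at least 2 log2 CPM in edgeR, up to 10 by fold change in each direction. In the paired dogs 18 met this and all were higher. The 10 with the largest fold changes, from 3.85 to 9.18, were higher in the FFPE library of 8 of 8 dogs. They were picked by adjusted p and fold change in these same libraries, so this agreement is no added support. In introns lie 7 of the 10, against 73 of all 168 tested short features. Adjusted p-values (edgeR) of the 10 ran from 0.00388 to 0.0154.

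The largest change was at chr14:55576762-55576843, 82 bp on the plus strand outside other genes. It had 0.0614, 3.40 and 59.5 CPM in the 8 FFPE libraries (lowest, median, highest), against 0, 0 and 0.0409 CPM in the 8 fresh-frozen libraries of the same dogs. Every FFPE library lay above every fresh-frozen one. The FFPE libraries held 306 counts and the fresh-frozen ones 2, so the CPM ratio was 315 with a 95% counting interval of 86.4 to 2611, which covers counting error only. The fitted log2 fold change was 9.18 ± 1.31 (SE; edgeR adjusted p = 0.00388) and depends on the prior count.

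The intron feature chr10:25744338-25744431 (94 bp, plus strand) had 0.184, 12.9 and 24.1 CPM in FFPE and 0, 0.191 and 0.922 CPM in fresh-frozen libraries, with 7 FFPE libraries above every fresh-frozen one. Its log2 fold change was 5.59 ± 0.78 (SE; edgeR adjusted p = 0.00388), while its host had -0.79 (edgeR adjusted p = 0.157). The feature chr3:46169503-46169573 (71 bp), opposite a gene, had 3.13, 9.05 and 218 CPM in FFPE and 0.311, 0.737 and 1.57 CPM in fresh-frozen libraries, with no overlap (log2 fold change 4.81 ± 0.84 SE; edgeR adjusted p = 0.00624). The highly counted feature on chromosome 16 followed with 6.45, 93.1 and 600 CPM in FFPE and 0.414, 3.91 and 14.8 CPM in fresh-frozen libraries (log2 fold change 4.63 ± 0.92 SE; edgeR adjusted p = 0.0097). Here the lowest FFPE library, of control dog 60126, lay within the fresh-frozen range.

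In some host genes several intron features were higher together, here including features outside the naming rule that were picked after their values were seen. In the run of 5 features on the minus strand of chromosome 1, 4 lie in introns of 1 host, and of these chr1:107011504-107011576, chr1:107011784-107011868 and chr1:107012520-107012603 were higher in FFPE, with log2 fold changes of 4.46, 4.18 and 3.85 (edgeR adjusted p = 0.00579, 0.0154 and 0.00737). The host itself had -0.67 (edgeR adjusted p = 0.262). The most counted of these, chr1:107012520-107012603, had 2.67, 34.4 and 123 CPM in FFPE and 0.720, 2.58 and 11.8 CPM in fresh-frozen libraries. Likewise 3 features in introns of 1 host on chromosome 15 (15542854 to 15544893) had 3.09, 3.52 and 2.40 (edgeR adjusted p = 0.0348, 0.0153 and 0.0188). They include chr15:15544814-15544893, which ranked 3 by mean CPM in FFPE and 2 in fresh-frozen libraries, and their host had -0.30 (edgeR adjusted p = 0.575).

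**Figure D3:**
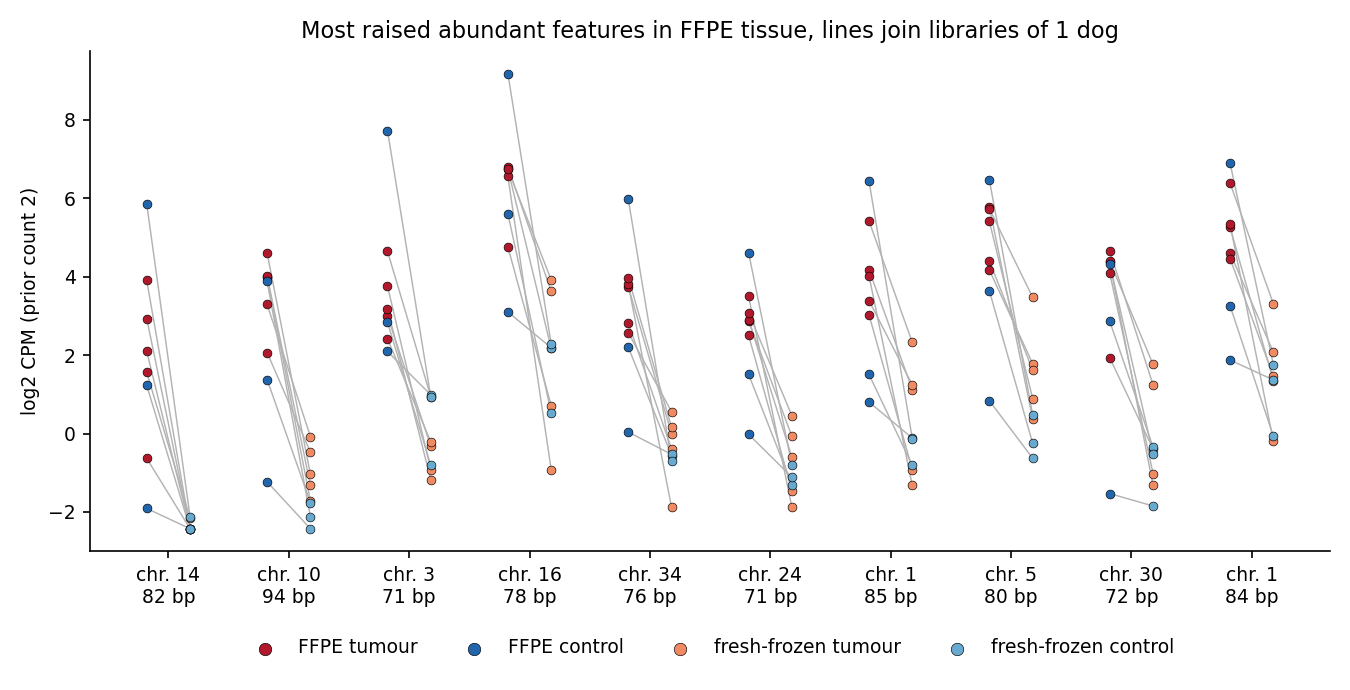
Log2 CPM (prior count 2) of the 10 named short features of the paired comparison, ordered by fold change, with FFPE libraries on the left and fresh-frozen libraries on the right of each position and lines joining the libraries of 1 dog. Every line runs lower on the fresh-frozen side, for features picked by fold change in these libraries. The FFPE points of control dog 60462 are the highest for 8 of the 10 features.

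Runs were defined as at least 5 short features on 1 strand with gaps of at most 10 kb, and 12 runs held 144 features. The longest had 60 features over 99 kb of the plus strand of chromosome 8 (69132786 to 69231788), all outside other genes, 62 to 79 bp long and a median of 991 bp apart from start to start. Of these 23 had 75 bp and 17 had 72 bp. All 60 had counts, with totals of 11 to 947 over the 33 libraries and 9472 in all. Reads that map to several places were not counted, so features with near-identical copies in the run can be undercounted.

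This run was also raised in FFPE tissue. Its summed CPM (lowest, median, highest) was 18.0, 48.6 and 107 in FFPE tumour and 19.6, 92.7 and 231 in FFPE control, against 4.71, 11.4 and 17.3 in fresh-frozen tumour and 5.66, 12.3 and 18.6 in fresh-frozen control. All 10 FFPE controls and 9 of 11 FFPE tumours lay above every fresh-frozen library, and the other 2 tumours, at 18.0 and 18.3 CPM, lay within the fresh-frozen control range. In the paired dogs 34 of the 60 passed the filter and 14 were higher in FFPE, where 2.81% of all genes tested were. All 34 had a positive fold change (0.65 to 3.79, median 2.32). Their common sign adds little, since features of the run averaged a median of 0.129 CPM in fresh-frozen libraries, under the filter's 0.631 CPM. Such features could pass through their FFPE libraries alone, which favours high values. As a share of short-feature counts the run averaged 4.77% ± 3.23 in FFPE tumour against 7.74% ± 3.07 in FFPE control, and 4.44% ± 2.01 in fresh-frozen tumour against 9.93% ± 1.95 in fresh-frozen control (SD), with no test on the sum.

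A second run on the same strand began 22.01 kb further on and held 13 features of 79 to 90 bp (69253798 to 69291015). Of these 12 had counts, 227 in all, and the summed CPM did not exceed 4.38 in any library. None passed the filter in the paired dogs. The 2 neighbouring runs thus differed widely in counts, as the plot along chromosome 8 shows.

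**Figure D4:**
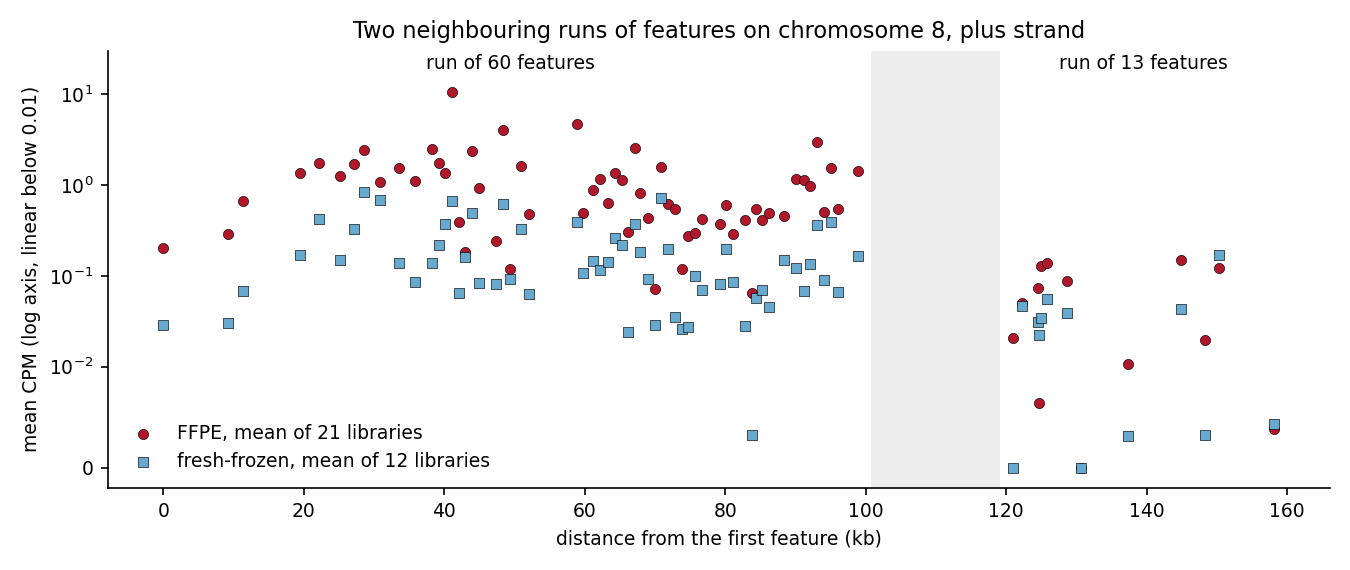
Mean CPM of each feature in the run of 60 and in the neighbouring run of 13 on the plus strand of chromosome 8, against distance from the first feature in kb (the vertical axis is logarithmic above 0.01 and linear below). Circles are means of the 21 FFPE libraries and squares means of the 12 fresh-frozen libraries, and the highest circle stands at 10.6 CPM.

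Other runs varied. The 6 features on chromosome 18 (53842200 to 53844541) summed to 55.2, 103 and 243 CPM in FFPE tumour and 24.6, 66.7 and 830 CPM in FFPE control (lowest, median, highest), against 16.98, 46.2 and 81.9 CPM in fresh-frozen tumour and 10.6, 18.3 and 52.5 CPM in fresh-frozen control, and 2 of 6 tested were higher in FFPE. The 9 on chromosome 7 (25362614 to 25365836) summed to 15.1, 41.8 and 90.2 CPM in FFPE tumour and 3.53, 23.9 and 83.9 CPM in FFPE control, against 2.80, 6.20 and 38.3 CPM in fresh-frozen tumour and 0.906, 2.37 and 4.59 CPM in fresh-frozen control. Of the 16 on chromosome 3 (35705669 to 35753351), with a median length of 95 bp, 3 were tested in the paired dogs and 0 called. A run of 6 on chromosome X (104895657 to 104896574) had counts on 2 of its features. These were 1 count each in the fresh-frozen tumour libraries of dogs 60636 and 60749, too few to compare preservations.

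Tumour was compared with control in FFPE tissue to ask which genes differ in archived material. Of the short features 72 passed the filter over these 21 libraries. Of them 2 were higher in tumour and 2 lower (2.78% each), where 10.1% of the 13338 genes tested were higher and 11.1% lower, so both shares lay under the background. At an unadjusted p under 0.05, 4 were higher and 3 lower, where 4839 of all 13338 genes passed in either direction. DESeq2 called 4 and 4 of 238, where it called 9.96% of all genes higher and 11.1% lower. The median log2 fold change was 0.00, with 37 features above 0 and 35 below.

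In fresh-frozen tissue 41 short features passed the filter over 12 libraries. Of these 8 were higher in tumour (19.5%, where 18.3% of all 15057 genes tested were higher) and 0 lower (12.2% of all genes were lower). The share of higher features was thus near the background. With no correction 14 were higher and 0 lower at p under 0.05, where 6620 of all 15057 genes passed in either direction. DESeq2 called 36 higher and 5 lower of 203, where it called 16% of all genes higher and 15.4% lower. The median was 1.04, against 0.10 over all genes, and 30 of 41 were above 0. In tumour but not in control libraries alone 12 of the 41 reached the filter's 0.519 CPM in 6 libraries, including 4 of the 8 calls. Calls numbered 2 without the 4 dogs that stood apart, where 8.74% of all genes were higher. They numbered 5 when 1 of the dogs 60459, 60460, 60629, 60631 or 60749 was left out, where 12.8% to 13.7% of all genes were higher. Without 60679 they numbered 13 (16.5% of all genes), and without any other dog 6 to 8.

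The 2 features higher in FFPE tumour were also higher in fresh-frozen tumour, and 5 dogs with tumour and 3 controls gave libraries to each comparison. ENSCAFG00000028447 (chr36:16631309-16631391, 83 bp, plus strand, outside other genes) had 8.16, 23.7 and 101.2 CPM in FFPE tumour and 0, 3.22 and 17.7 CPM in FFPE control (lowest, median, highest). In fresh-frozen tissue it had 7.31, 15.7 and 73.0 CPM in tumour and 1.91, 2.40 and 6.36 CPM in control. In FFPE tissue 7 of 11 tumours lay above every control, and in fresh-frozen tissue 6 of 6 did. Its log2 fold change was 2.62 ± 0.48 (SE; edgeR adjusted p = 0.00155) in FFPE and 2.79 ± 0.56 (SE; edgeR adjusted p = 0.00439) in fresh-frozen tissue. The interaction estimate was -0.03 ± 0.69 (SE; edgeR adjusted p = 1), and its FFPE over fresh-frozen log2 fold change was 1.03 ± 0.43 (SE; edgeR adjusted p = 0.225). The FFPE call was lost in the 8 paired dogs alone (log2 fold change 3.61, edgeR adjusted p = 0.115), where 1 of all 15034 genes tested was called. A single-exon entry of 137 bp lies 50 bp from it on the same strand and did not pass the filter in these comparisons.

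ENSCAFG00000022486 (chr21:7030276-7030355, 80 bp, minus strand) lies in an intron of a gene of 24 exons. It had 1.77, 14.4 and 40.9 CPM in FFPE tumour and 1.06, 4.07 and 11.9 CPM in FFPE control, and 8.80, 15.01 and 40.9 CPM in fresh-frozen tumour and 2.78, 5.46 and 8.64 CPM in fresh-frozen control. In FFPE tissue 6 of 11 tumours lay above every control, and the fresh-frozen groups did not overlap. Its log2 fold changes were 1.55 ± 0.45 (SE; edgeR adjusted p = 0.0176) in FFPE and 1.87 ± 0.51 (SE; edgeR adjusted p = 0.0172) in fresh-frozen tissue. Its host had 0.32 (edgeR adjusted p = 0.423) and -0.13 (edgeR adjusted p = 0.744). The FFPE call was lost without the 8 paired dogs (edgeR adjusted p = 0.0539), in those dogs alone (0.3) and with age as a covariate (0.45). In the paired dogs alone 1 of all 15034 genes tested was higher and 0 lower. The age fit used only the 9 tumours and 5 controls with a stated age, with 0.379% of all genes higher and 0.358% lower. The fresh-frozen call was lost without the 4 dogs that stood apart (edgeR adjusted p = 0.0511).

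Both features lower in FFPE tumour belong to the run of 60 on chromosome 8. ENSCAFG00000022294 (chr8:69191614-69191691, 78 bp) had 0, 1.71 and 5.21 CPM in FFPE tumour and 0.549, 4.69 and 25.7 CPM in FFPE control, with 2 of 11 tumours below every control. ENSCAFG00000029867 (chr8:69173879-69173953, 75 bp) had 0.960, 4.73 and 18.5 CPM in FFPE tumour and 0.921, 13.7 and 40.1 CPM in FFPE control, and 0 tumours lay below every control. The groups overlapped for both. Their log2 fold changes were -1.98 ± 0.63 (SE; edgeR adjusted p = 0.0291) and -1.64 ± 0.53 (SE; edgeR adjusted p = 0.0303). Neither call held without the 8 paired dogs (edgeR adjusted p = 0.11 and 0.128), in those dogs alone (0.325 and 0.347) or with age as a covariate (0.204 and 0.194). These fits called fewer genes of any kind. Without the paired dogs 4.01% of all genes were higher and 5.51% lower, and in those dogs alone 1 of 15034 genes was called. The age fit used only the 9 tumours and 5 controls with a stated age, with 0.379% of all genes higher and 0.358% lower. There the 2 features had log2 fold changes of -2.67 and -2.35.

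In fresh-frozen tissue the first of these did not pass the filter, at 0.102, 0.283 and 0.416 CPM in tumour and 0.393, 0.532 and 0.666 CPM in control, and 4 of 6 tumours lay below every control. The second had a log2 difference of -0.42 ± 0.44 (SE; edgeR adjusted p = 0.471). Over the run, 4 features were tested in FFPE tissue (median -1.33) and 4 in fresh-frozen tissue (median -0.32, all below 0).

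**Figure D5:**
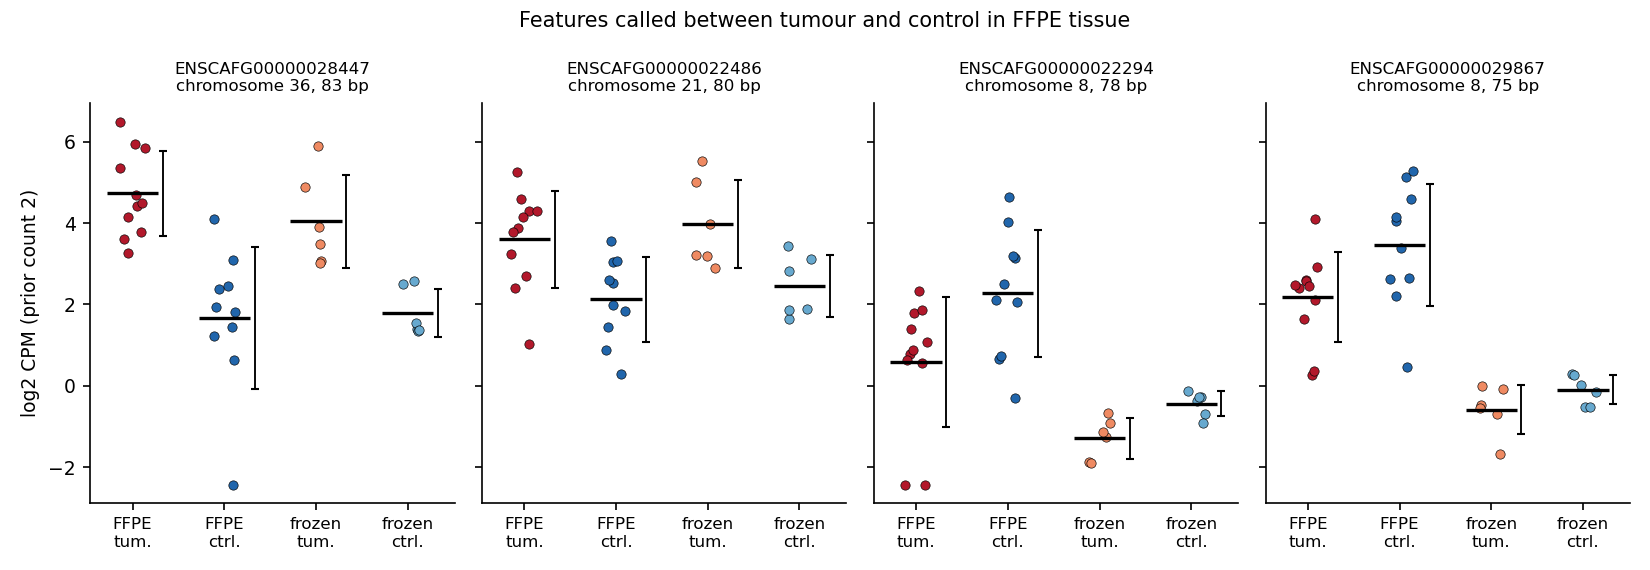
Log2 CPM (prior count 2) of the 4 short features called between tumour and control in FFPE tissue, in all 33 libraries. Points are libraries, horizontal bars are means and vertical bars the SD beside them, with tumour left of control in each preservation, and the FFPE groups overlap in every panel.

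The other 6 features called higher in fresh-frozen tumour fell under the abundance limit for naming and are described after their values were seen. On chromosome 21, chr21:7022351-7022423 (73 bp, plus strand, outside other genes) had 1.61, 3.76 and 6.85 CPM in tumour and 0.216, 0.441 and 0.926 CPM in control, with no overlap. Its log2 fold change was 2.73 ± 0.46 (SE; edgeR adjusted p = 0.00208). A single-exon entry of 135 bp lies nearby on the same strand and was also higher, by 2.02 ± 0.56 (SE; edgeR adjusted p = 0.0181). In FFPE tissue the short feature had 1.38 ± 0.58 (SE; edgeR adjusted p = 0.0874) and the longer entry 1.73 ± 0.48 (SE; edgeR adjusted p = 0.0153).

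The run on chromosome 7 held 2 of the 6. The feature chr7:25365524-25365601 had 0.777, 2.50 and 15.7 CPM in fresh-frozen tumour and 0.170, 0.699 and 2.29 CPM in control, with 4 of 6 tumours above every control (higher by 2.38 ± 0.76 log2 units, SE; edgeR adjusted p = 0.0318). The feature chr7:25363609-25363677 had 0.362, 0.742 and 6.45 CPM in tumour and 0, 0.168 and 0.549 CPM in control, with 5 of 6 above (2.62 ± 0.88 SE; edgeR adjusted p = 0.0396). These were the only 2 of the run's 9 features to pass the filter in fresh-frozen tissue. In FFPE tissue the first had 0.88 ± 0.51 (SE; edgeR adjusted p = 0.214) and the second did not pass the filter.

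The intron feature chr5:63979899-63979978 had 1.35, 3.03 and 13.2 CPM in fresh-frozen tumour and 0.374, 0.847 and 1.25 CPM in control, with no overlap, and was higher by 2.39 ± 0.57 on the log2 scale (SE; edgeR adjusted p = 0.0095). Its host was higher as well, by 1.68 (edgeR adjusted p = 0.00184). In FFPE tissue the feature had 0.21 ± 0.48 (SE; edgeR adjusted p = 0.786) while its host had 1.32 (edgeR adjusted p = 0.00471). The last 2 calls were chr6:54209475-54209569 (95 bp, in an intron) at 2.02 ± 0.56 (SE; edgeR adjusted p = 0.0172) and chr5:39489518-39489588 (71 bp) at 1.45 ± 0.49 (SE; edgeR adjusted p = 0.0391). The host of the chromosome 6 feature had 0.27 (edgeR adjusted p = 0.562). In FFPE tissue the 2 features had 0.80 ± 0.52 (SE; edgeR adjusted p = 0.274) and 0.35 ± 0.46 (SE; edgeR adjusted p = 0.61).

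Hosts and intron features can be set side by side in these comparisons. In FFPE tissue 39 tested intron features had a median of 0.01, against 0.69 for their 27 hosts. Of these 1 feature and 11 hosts were higher in tumour, where 10.1% of all genes tested were. In fresh-frozen tissue 18 features had a median of 1.15, against 1.36 for their 14 hosts. Here 3 features and 8 hosts were higher, where 18.3% of all genes tested were. The feature was above its host in 11 of 39 cases in FFPE and in 9 of 18 in fresh-frozen tissue. In each preservation 3 of these features also passed the filter in control libraries alone, of which 0 lay above their host in FFPE and 1 in fresh-frozen tissue.

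Whether the tumour difference itself depended on preservation was tested as an interaction over all 33 libraries. Of 135 short features tested 0 were called, and 0% of all 15714 genes were. In edgeR 8 short features had a negative and 0 a positive interaction at an unadjusted p under 0.05, where 575 of all 15714 genes passed in either direction. DESeq2 called 0 short features. The median estimate was -1.04, with 20 of 135 above 0, where a negative estimate means a lower tumour fold in FFPE than in fresh-frozen tissue. With the dog as a random block in limma voom the median was 0.09, with 0 at an unadjusted p under 0.05, so the sign of the median depended on the model. No short feature was thus shown to differ in its tumour effect between preservations.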

How the data were processed

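RNA of 33 dog brain samples was made into forward-stranded total RNA libraries with molecular identifiers of 12 nt and read from both ends, per the labels' protocols. Collapsing of reads by identifier is not stated, so counts may hold PCR copies. The authors deposited raw counts of fragments per gene, made with featureCounts 1.6.0 on the forward strand at a mapping quality of at least 10, with Ensembl release 100 models of CanFam3.1, per the file headers. The submitters' processing notes also list STAR and fastp. The values carry no normalisation. Counting intervals cover counting error only.

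Exon coordinates and lengths in the table gave the short features, their position and runs. Identifiers were matched to RefSeq (UU_Cfam_GSD_1.0) with 0 matches, so gene names and cell type markers were not used. The members, lists and rules were chosen with earlier results of these data known. Counts were tested with edgeR 4.0.16 in R 4.3.3 (filterByExpr, TMM, robust quasi-likelihood F tests, Benjamini-Hochberg over all genes tested), with DESeq2 1.42.0 and limma 3.58.1 as alternatives, and the code was tested on simulated data. CPM values use the total of all counts, and log2 CPM a prior count of 2. Thinning to equal depth used the exact hypergeometric expectation. Named features were those past an adjusted p of 0.05 with an average of at least 2 log2 CPM, at most 10 per direction, and the 10 most counted in each preservation. At most 4 identifiers are printed and other features are given by position.

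Pairing by dog comes from the dog numbers in the labels. Deviations from group means correlated between the libraries of a dog at 0.085 to 0.744, above 0.1 in 7 of 8 dogs.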

Additional observations from a re-analysis of the deposited data

Results flagged for a closer look

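In 48 groups of 4 to 10 libraries the most extreme library was compared with the others by Dixon's ratio, and 6 stood apart. The nominal rate of about 1 in 20 groups does not hold where libraries tie at 0 counts. The groups also share libraries, so the 6 are not set against that rate. The share of counts in short features was highest in FFPE control dog 60462, at 0.432%, far above the other FFPE controls. For chr5:63979899-63979978 the lowest FFPE control stood at 0.84 log2 CPM, and for chr30:30770039-30770110 at -1.53 log2 CPM. For ENSCAFG00000028447 the lowest FFPE control stood at -2.43 log2 CPM, the value of 0 counts. For chr14:55576762-55576843 the highest fresh-frozen tumour stood at -1.48 log2 CPM and the highest fresh-frozen control at -2.13 log2 CPM, where most other libraries had 0 counts. No cause was tested.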

How the results depend on the processing

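The 62 short features higher in FFPE tissue of paired dogs became 109 with DESeq2, 15 in the 5 tumour dogs, 0 in the 3 control dogs, 125 over all 33 libraries with tissue as a covariate, 0 without the 4 dogs whose fresh-frozen libraries stood apart, and 21 to 83 with 1 dog left out. With the dog as a replicate block the count was 68, where 3.34% of all genes were higher. This block changed no call on the 10 named features. Lower features numbered 0 under each of these. The share of all genes called higher moved as well, from 2.81% to 5.14% with DESeq2 and 0.504% in the tumour dogs. It was 0% in the control dogs and without the 4 dogs that stood apart, and 17.6% over all 33 libraries. With 1 dog left out it was 0.976% to 4.16%. In FFPE tissue the 2 higher and 2 lower features in tumour became 9 and 6 with no filter, 4 and 4 with DESeq2, 1 and 0 without the paired dogs, 0 and 0 in the paired dogs alone, and 1 and 0 with age as a covariate. In fresh-frozen tissue the 8 higher and 0 lower became 18 higher with no filter, 36 and 5 with DESeq2, 2 higher without the 4 dogs that stood apart and 13 higher with their set as a covariate, and leaving out 1 dog gave 5 to 13 higher and 0 to 2 lower, with 1 lower without dog 60127 and 2 without 60636. Shares of all genes called moved too. In FFPE tissue they were 4.59% higher and 8.84% lower with no filter, and 4.01% and 5.51% without the paired dogs. They were 0.379% and 0.358% with age, in libraries with a stated age only, and 1 of 15034 genes was called in the paired dogs alone. In fresh-frozen tissue 8.44% were higher with no filter, 8.74% without the 4 dogs and 23.4% with their set as a covariate. Other scaling left the counts of short features within 1.5 times. No named feature reversed its direction under any alternative run. The causes of these shifts were not tested, except that smaller subsets hold fewer libraries. Few counts limit the rest, since 507 of the 676 were tested in no comparison of FFPE with fresh-frozen or tumour with control tissue.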
